A study of Mus musculus with 13 samples.

Results

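The genes described here are 33 components of the excitatory synapse, namely 23 glutamate receptor genes and 10 genes of the scaffold proteins that hold these receptors at the postsynaptic membrane. They were chosen by gene symbol as a known functional group, with earlier results of these data known, and all 33 were found by gene ID among the 52550 genes of a bulk RNA-seq count table. The libraries came from mouse retinal cells sorted by FACS for Thy1.2, a surface protein used to enrich retinal ganglion cells (RGCs), the neurons whose axons form the optic nerve. AAV2-Cre libraries (labelled UTX knockout, after another name of Kdm6a, n = 2) came from Kdm6a f/f mice given Cre by an intravitreal AAV2 vector, and AAV2-GFP libraries (n = 3) from mice given the GFP vector, which the study describes as Kdm6a f/f in one place and as wild type in another. Both groups were labelled P42 and were taken 3 days after optic nerve crush, so neither has an uninjured counterpart. The other libraries came from uninjured WT mice at P1 (n = 3), P14 (n = 3) and P21 (n = 2), with P for postnatal day. AAV2 injected into the vitreous reaches many but not all RGCs and may reach other retinal cells, and the labels do not say whether a library is 1 animal or a pool. The p-values therefore measure the spread between these libraries.

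Glutamate is the main excitatory transmitter of the retina, released by photoreceptors, bipolar cells and RGCs. Ionotropic receptors are ion channels of 4 subunits: AMPA receptors (Gria genes) carry fast transmission, NMDA receptors (Grin genes) pass calcium when glutamate and depolarization coincide, kainate receptors (Grik genes) shape transmission on either side of the synapse, and delta receptors (Grid genes) act mainly as synaptic organizers. Metabotropic receptors (Grm genes) signal through G proteins. Below the membrane, Dlg proteins anchor receptors, Shank proteins form a deeper layer, and Homer proteins link Shank to metabotropic receptors. RGCs receive excitation from bipolar cells through AMPA and NMDA receptors, while bipolar cells, amacrine cells and Müller glia express glutamate receptors of their own.

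The promoters of 4 members that carry the developmental pattern are shown first, since Grm2, Grm3 and Shank3 had their lowest levels of development at P21 and Dlg1 its highest. Sequences are from RefSeq (GRCm38.p6), 300 bases each, from 250 before to 50 after an annotated start, and capitals mark CG dinucleotides.
Grm2 (chr9:106656060-106656359, minus strand): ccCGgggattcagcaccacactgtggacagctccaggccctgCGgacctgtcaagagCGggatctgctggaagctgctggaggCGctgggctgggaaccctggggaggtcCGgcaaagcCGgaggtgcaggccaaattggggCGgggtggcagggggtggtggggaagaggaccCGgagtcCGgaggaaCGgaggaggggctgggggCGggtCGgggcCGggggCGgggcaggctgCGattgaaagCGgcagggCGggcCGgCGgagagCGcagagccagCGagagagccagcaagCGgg
Grm3 (chr5:9725303-9725602, minus strand): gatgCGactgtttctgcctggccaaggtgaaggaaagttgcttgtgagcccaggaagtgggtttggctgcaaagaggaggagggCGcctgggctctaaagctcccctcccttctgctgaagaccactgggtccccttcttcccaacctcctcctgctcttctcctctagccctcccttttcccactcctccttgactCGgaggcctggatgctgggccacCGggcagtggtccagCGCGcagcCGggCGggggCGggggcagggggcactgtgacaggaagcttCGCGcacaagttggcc
Shank3 (chr15:89499358-89499657, plus strand): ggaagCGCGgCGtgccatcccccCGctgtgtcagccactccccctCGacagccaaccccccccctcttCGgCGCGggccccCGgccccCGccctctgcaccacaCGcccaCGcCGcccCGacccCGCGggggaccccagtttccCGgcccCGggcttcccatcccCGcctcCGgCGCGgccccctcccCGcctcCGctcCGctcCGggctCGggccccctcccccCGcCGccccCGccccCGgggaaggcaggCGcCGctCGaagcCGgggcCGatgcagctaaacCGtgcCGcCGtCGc
Dlg1 (chr16:31663685-31663984, plus strand): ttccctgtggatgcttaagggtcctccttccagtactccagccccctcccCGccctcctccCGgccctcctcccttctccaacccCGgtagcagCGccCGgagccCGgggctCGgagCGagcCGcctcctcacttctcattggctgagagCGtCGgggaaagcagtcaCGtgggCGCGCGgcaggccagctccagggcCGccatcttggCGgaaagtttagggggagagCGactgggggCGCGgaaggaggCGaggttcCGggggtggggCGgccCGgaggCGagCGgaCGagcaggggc
These windows hold 22 CG in Grm2, 11 in Grm3, 40 in Shank3 and 27 in Dlg1, the last being the first listed of its 4 windows. RefSeq windows were matched by symbol for 22 members (35 windows), and the other 11 are not shown. The count of CG ran from 1 to 50 in the members' windows with a median of 12, against a median of 7 in all 32851 windows, of which 94.6% hold at least 1 CG (35 of 35 of the members'). The cAMP response element TGACGTCA, which reads the same on both strands, was in 0 of the 35 windows and in 1.79% of all windows. These letters describe the windows and no binding or mark was measured on them here.

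Library totals were 13637602 to 16070720 counts in the crush libraries and 30357454 to 38812917 in the development libraries. The cell type label was checked against RGC markers (15 genes led by Rbpms and Pou4f1). Their summed share of counts was 0.986% to 1.08% at P1, 0.137% to 0.157% at P14 and 0.0498% to 0.0914% at P21, and it was 0.0348% to 0.0431% in AAV2-Cre and 0.0380% to 0.0445% in AAV2-GFP. The RNA-binding protein gene Rbpms, which marks RGCs broadly, averaged 2.55 ± 0.829 CPM (counts scaled to library size) in AAV2-Cre and 1.74 ± 0.994 CPM in AAV2-GFP, against 637 ± 34.6 CPM at P1 and 34.3 ± 20.7 CPM at P21 (SD). Thy1, the gene of the sorted surface protein, averaged 36.3 ± 2.93 CPM in AAV2-Cre and 22.4 ± 4.72 CPM in AAV2-GFP, against 544 ± 38.3 CPM at P1 and 80.6 ± 17.2 CPM at P21. Pou4f1 averaged 1.58 ± 0.483 CPM in AAV2-Cre and 0.883 ± 0.957 CPM in AAV2-GFP, against 662 ± 16.7 CPM at P1 and 12.7 ± 16.4 CPM at P21. Rbpms and Pou4f1 were thus near 0 after crush while Thy1 was present. The share of all 15 markers was less far from P21, where replicate 2 had 0.0498%. The samples are called by their labels only. Rod photoreceptor markers (10 genes) took 1.25% to 2.69% of counts in AAV2-Cre and 2.81% to 3.34% in AAV2-GFP, and at most 0.101% in any development library. Müller glia markers (10 genes) took 0.214% to 0.572% at P1, 2.11% to 2.23% at P14 and 3.87% to 4.08% at P21. P1 replicate 3 stood apart from the other P1 libraries, with a chi-square per degree of freedom over genes of 16.3 and 19.2 against 3.77 between the other two. Kdm6a itself had 111 ± 1.10 CPM in AAV2-Cre and 110.0 ± 11.8 CPM in AAV2-GFP (SD), and counts of the whole gene do not resolve the floxed exon.

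The first question was how these genes change as the retina matures. Most glutamate receptor and scaffold genes had lower levels at P14 than at P1, among them all AMPA and Homer genes, while Dlg1, Grm5 and Grik1 rose. The kainate receptor gene Grik3 had the largest fall (log2 fold change -2.54), followed by the NMDA receptor gene Grin2b (-2.30). Of 33 members, 28 were lower and 3 were higher at P14 than at P1 (edgeR, adjusted p under 0.05, n = 3 each). Over all 20890 genes tested, 33.6% were lower and 33.6% were higher. The median log2 fold change was -0.92 over members and -0.01 over all genes. With the study's additional limit of 1 on the log2 fold change, 15 members were lower and 1 was higher, against 15.2% and 19.7% of all genes. The fall of RGC markers over the same interval was larger: 13 of 15 were lower, with a median log2 fold change of -3.22, and 0 of 33 members fell by more than that median. In bulk libraries, fewer cells of a type and less RNA per cell cannot be told apart, and the part of the falling RGC share in these results was not tested.

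**Figure D1:**
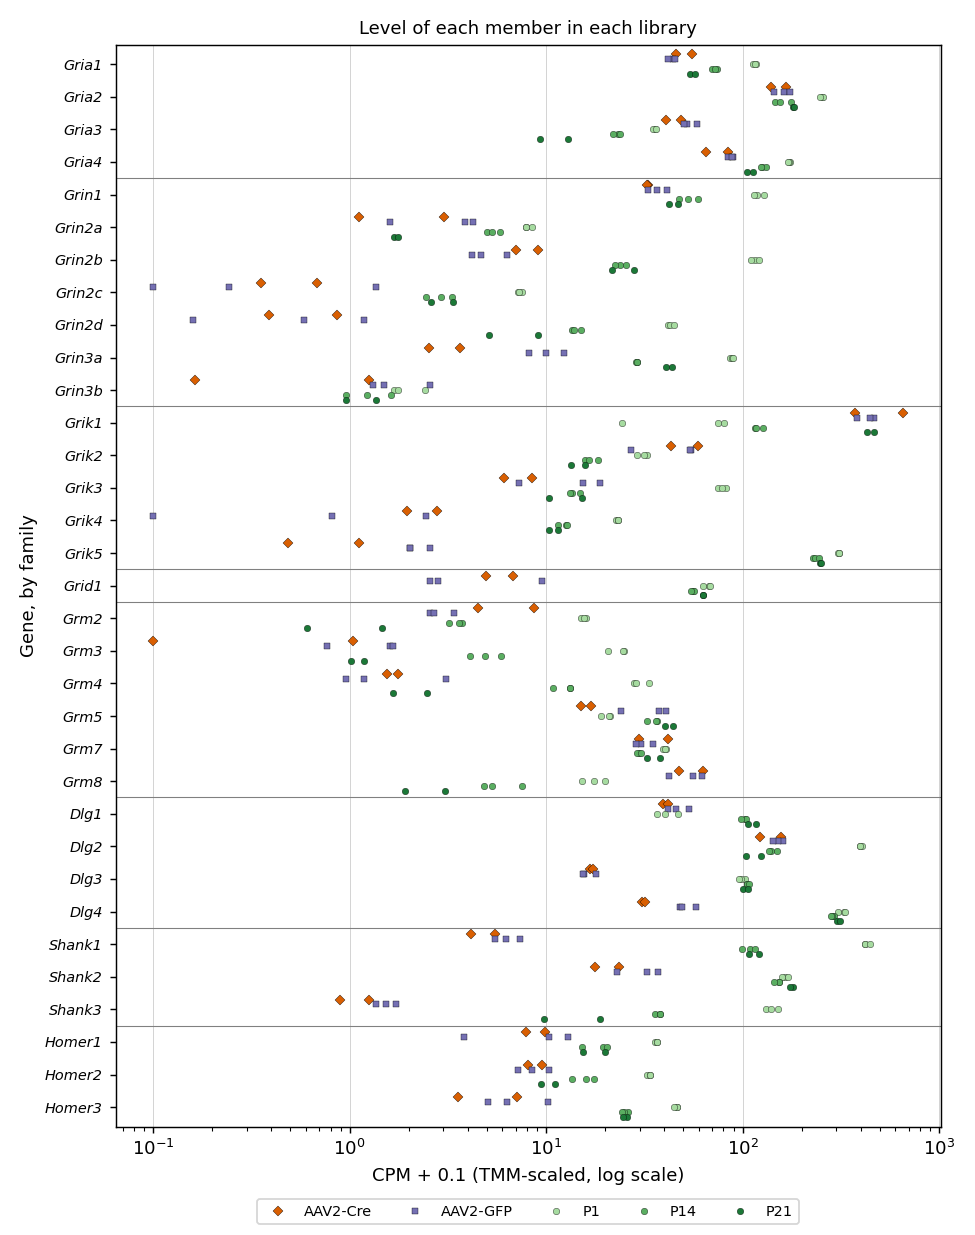
Level of each of the 33 members (rows, grouped by family) in each of the 13 libraries, as CPM + 0.1 on a log axis, where each point is 1 library coloured by group. Grik1 sits between 372 and 658 CPM in the AAV2-Cre libraries and Grik5 below 2.5 CPM in all crush libraries, against 229 CPM or more for Grik5 at every age of development.

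All 4 AMPA receptor genes fell between P1 and P14. Gria1 had 117, 113 and 115 CPM in P1 libraries, 73.9, 69.9 and 72.7 CPM in P14 libraries, and 54.1 and 57.5 CPM at P21. No P14 library overlapped a P1 library, and the log2 fold change at P14 over P1 was -0.70 (SE 0.05, adjusted p = 1.21e-06). Gria2, whose edited subunit keeps AMPA receptors nearly closed to calcium, had 253, 258 and 249 CPM in P1 libraries, 147, 176 and 155 CPM in P14 libraries, and 180.4 and 183 CPM at P21. It fell to P14 with the same log2 fold change of -0.70 (SE 0.07), and the P21 libraries lay above all P14 libraries (0.25, SE 0.07, adjusted p = 0.0289). Gria3 had 35.9, 34.9 and 36.3 CPM in P1 libraries, 23.2, 23.7 and 21.7 CPM in P14 libraries, and 12.8 and 9.20 CPM at P21. It fell at each step, with log2 fold changes of -0.67 (SE 0.10) at P14 over P1 and -1.0 (SE 0.12) at P21 over P14. Gria4 had 174, 172 and 169.8 CPM in P1 libraries, 125, 132 and 124 CPM in P14 libraries, and 113 and 105 CPM at P21, with a log2 fold change of -0.47 (SE 0.05) at P14 over P1.

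The balance of Gria2 against the sum of the other 3 AMPA genes was examined as a log2 ratio with 1 CPM added. It was 0.01 and 0.09 in the P21 libraries, against -0.59, -0.36 and -0.49 at P14 and -0.37, -0.31 and -0.37 at P1. The P21 libraries did not overlap the others, with differences of 0.53 from P14 and 0.40 from P1. The exact two-sided permutation p was 0.10 for each (adjusted 0.160 over 8 comparisons), which is the smallest that 2 against 3 libraries can give. At P14 over P1 the ratio differed by -0.13 with overlapping libraries (exact p = 0.30).

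Of 7 NMDA receptor genes, 6 fell between P1 and P14. The median log2 fold change at P14 over P1 was -1.39 over the NMDA genes and -0.69 over the AMPA genes, a difference that was not tested. Grin1, the subunit that every NMDA receptor needs, had 118, 114 and 129 CPM in P1 libraries, 47.3, 52.5 and 59.2 CPM in P14 libraries, and 46.8 and 42.2 CPM at P21 (P14 over P1 -1.22, SE 0.08, adjusted p = 5.86e-07). Its exons overlap the antisense gene Grin1os, which counts without strand cannot tell apart. Grin2b, the glutamate-binding subunit known to prevail early in brain development, had 115, 111 and 121 CPM in P1 libraries, 23.8, 25.5 and 22.4 CPM in P14 libraries, and 27.9 and 21.5 CPM at P21. Its fall at P14 was the largest of the family (-2.30, SE 0.09, adjusted p = 2.14e-08), and P21 and P14 libraries overlapped. Grin2a, the subunit that gains in brain as synapses mature, had 7.83, 8.38 and 7.77 CPM in P1 libraries, 4.93, 5.75 and 5.21 CPM in P14 libraries, and 1.59 and 1.66 CPM at P21. It fell at both steps, by -0.63 (SE 0.12) and then -1.65 (SE 0.16, adjusted p = 8.02e-05). Per kb of exon, Grin2a averaged 0.446 CPM in P1, 0.295 CPM in P14 and 0.0906 CPM in P21 libraries, below the 4.65, 0.962 and 0.996 CPM of Grin2b at these ages.

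On the log2 ratio of Grin2a to Grin2b with 1 CPM added, the P1 libraries had -3.71, -3.57 and -3.80, the P14 libraries -2.07, -1.97 and -1.91, and the P21 libraries -3.48 and -3.08. P14 was therefore above both other ages, with no overlap. The difference was 1.71 at P14 over P1, -1.30 at P21 over P14 and 0.41 at P21 over P1 (exact permutation p = 0.10 each, adjusted 0.160, the smallest possible). The last difference was 0.21 with 0.5 CPM added and 0.68 with 2 CPM added, and 0.21 without P21 replicate 2. Its size thus depended on the CPM added. The edgeR log2 fold changes at P21 over P1 were -2.27 (SE 0.16) for Grin2a and -2.20 (SE 0.10) for Grin2b. By these values Grin2a fell no less than Grin2b, so a gain of Grin2a on Grin2b from P1 to P21 is not shown.

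The remaining NMDA genes fell too at P14, apart from Grin3b. Grin2d, a subunit that gives slow currents, had 41.7, 42.9 and 44.8 CPM in P1 libraries, 13.4, 14.9 and 13.8 CPM in P14 libraries, and 8.99 and 5.05 CPM at P21. Its log2 fold changes were -1.65 (SE 0.15) at P14 over P1 and -0.94 (SE 0.18) at P21 over P14, the second being -0.61 without P21 replicate 2. Grin2c had 7.44, 7.06 and 7.16 CPM in P1 libraries, 2.83, 2.34 and 3.23 CPM in P14 libraries, and 3.28 and 2.49 CPM at P21 (P14 over P1 -1.39, SE 0.16). Grin3a, whose subunit lowers the calcium flow of NMDA receptors, had 86.6, 88.0 and 89.2 CPM in P1 libraries, 29.0, 28.7 and 29.0 CPM in P14 libraries, and 40.7 and 43.9 CPM at P21. It fell at P14 (-1.64, SE 0.06) and was higher at P21 than at P14 (0.61, SE 0.06, adjusted p = 9.28e-05), with no overlap at either step. Grin3b stayed between 0.861 and 2.33 CPM and was not called (-0.71, SE 0.30, adjusted p = 0.0638 at P14 over P1), although it was called with limma-voom (adjusted p = 0.0447), with at least 10 counts in every library (0.0441) and without P14 replicate 2 (0.0392, range over 14 alternatives 0.0392 to 0.394). The antisense gene Tmem259 overlaps its exons.

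Kainate receptor genes split in direction, with Grik1 alone rising at both steps. Grik1, a subunit known from OFF bipolar cells, had 74.7, 80.2 and 24.2 CPM in P1 libraries, 115, 127 and 117 CPM in P14 libraries, and 430.3 and 469 CPM at P21. P21 libraries were several times above P14 (log2 fold change 1.97, SE 0.37, adjusted p = 0.00317) and all P1 libraries were below P14 (0.97, SE 0.34, adjusted p = 0.0295). P1 replicate 3 was low, and without it the second value was 0.59. Leaving out P14 replicate 1, 2 or 3 gave adjusted p of 0.0637, 0.0801 and 0.0652, the range over 14 alternatives being 7.82e-06 to 0.0801. Müller glia markers took 0.535%, 0.572% and 0.214% of counts in the P1 libraries, lowest in replicate 3 like Grik1, and rose across the ages. Bipolar markers, at 0.0705%, 0.0731% and 0.0605%, were lowest in P1 replicate 3 too, and rod markers, at 0.00831%, 0.00926% and 0.0109%, were highest there. Bipolar markers were 0.382% to 0.396% at P14 and 0.310% to 0.342% at P21. In the crush libraries the Müller glia share was 0.344% to 0.769%, with Grik1 at 372 to 658 CPM. The part of these cell types in the rise of Grik1 was not tested.

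The other kainate genes were lower at P14 than at P1. Grik3 had 82.6, 74.6 and 78.4 CPM in P1 libraries, 13.5, 13.1 and 14.8 CPM in P14 libraries, and 15.1 and 10.2 CPM at P21. Its log2 fold change of -2.54 at P14 over P1 (SE 0.12, adjusted p = 5.44e-08) was the largest fall of all 33 members. Grik2, a principal subunit like Grik1 and Grik3, had 29.1, 32.7 and 31.4 CPM in P1 libraries, 15.7, 18.2 and 16.4 CPM in P14 libraries, and 15.7 and 13.3 CPM at P21 (P14 over P1 -0.92, SE 0.09). Grik4 and Grik5 encode high-affinity subunits that need a principal partner. Grik4 had 22.6, 23.1 and 23.2 CPM in P1 libraries, 12.6, 11.4 and 12.7 CPM in P14 libraries, and 11.4 and 10.2 CPM at P21 (P14 over P1 -0.94, SE 0.08). Grik5 had 311, 306 and 309 CPM in P1 libraries, 229, 235 and 246 CPM in P14 libraries, and 248 and 249.8 CPM at P21, a smaller fall (-0.41, SE 0.04). None of these 4 was called between P14 and P21 with edgeR on all libraries. Grik3 was called lower without P21 replicate 1 (-0.38, adjusted p = 0.0281, range over 13 alternatives 0.0281 to 0.931), and Grik5 higher with limma-voom (0.13, adjusted p = 0.0293). The delta receptor gene Grid1 had 63.2, 67.2 and 68.1 CPM in P1 libraries, 55.9, 56.7 and 54.9 CPM in P14 libraries, and 63.0 and 62.9 CPM at P21. It was lower at P14 than at P1 (-0.28, SE 0.05) and higher at P21 than at P14 (0.23, SE 0.06). The rise was not called without P21 replicate 2 (adjusted p = 0.0678, range over 13 alternatives 0.00765 to 0.838).

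**Figure D2:**
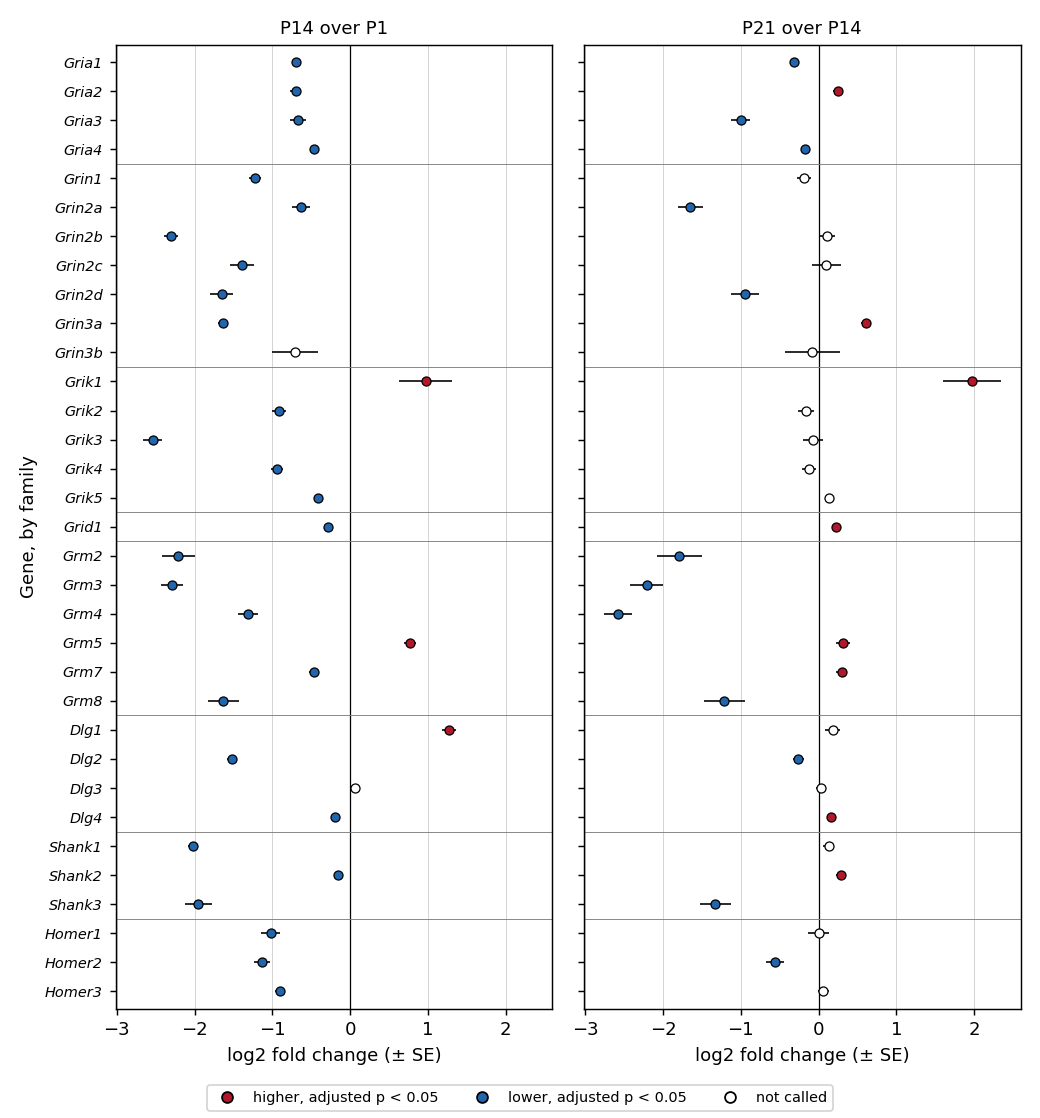
Log2 fold change ± SE of each member (rows, by family) for P14 over P1 (left) and P21 over P14 (right), from edgeR, with filled points for calls at adjusted p under 0.05. Most points of the left panel are blue and left of 0 (28 of 33), whereas 13 of 33 points of the right panel are open.

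Metabotropic genes held the steepest falls by P21. Group II genes, which inhibit cAMP formation, fell together: Grm2 had 15.0, 15.8 and 15.5 CPM in P1 libraries, 3.64, 3.51 and 3.10 CPM in P14 libraries, and 1.37 and 0.505 CPM at P21. Grm3 had 24.9, 20.6 and 24.5 CPM in P1 libraries, 4.02, 5.81 and 4.80 CPM in P14 libraries, and 1.09 and 0.920 CPM at P21. Neither gene had overlapping groups, and the log2 fold changes at P21 over P1 were -4.00 (SE 0.28) for Grm2 and -4.50 (SE 0.21) for Grm3. At P21 over P14, Grm2 had -1.79, or -2.69 without P21 replicate 1, whose RGC marker share was 0.0914% against 0.0498% in P21 replicate 2. Of the group III genes, which mostly act presynaptically, Grm4 had 27.9, 28.6 and 33.2 CPM in P1 libraries, 10.7, 13.1 and 13.1 CPM in P14 libraries, and 2.38 and 1.57 CPM at P21. It had the largest fall of all members at P21 over P14 (-2.58, SE 0.18, adjusted p = 1.51e-05). Grm8 had 17.4, 15.1 and 19.8 CPM in P1 libraries, 4.72, 7.44 and 5.18 CPM in P14 libraries, and 2.95 and 1.81 CPM at P21 (P21 over P1 -2.84, SE 0.26). Its exons hold the miRNA gene Mir592 on the same strand.

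Grm7 and Grm5 completed the family. Grm7, a group III receptor of the presynaptic active zone, had 40.8, 39.4 and 40.4 CPM in P1 libraries, 29.5, 28.9 and 30.5 CPM in P14 libraries, and 37.8 and 32.4 CPM at P21. It was lower at P14 (-0.47, SE 0.06) and higher again at P21 (0.30, SE 0.07), the second call being lost without P21 replicate 1 (0.19, adjusted p = 0.103, range over 13 alternatives 0.00736 to 0.361). Grm5, a group I receptor that raises intracellular calcium and binds Homer, had 18.9, 21.0 and 20.7 CPM in P1 libraries, 36.8, 36.2 and 32.7 CPM in P14 libraries, and 40.0 and 44.0 CPM at P21. It rose at P14 with a log2 fold change of 0.77 (SE 0.08, adjusted p = 1.55e-05). The further difference at P21 was 0.31 (SE 0.09, adjusted p = 0.0225), and it was not called without P14 replicate 3 (0.26, adjusted p = 0.0734) or P21 replicate 2 (0.22, adjusted p = 0.175), with a range of 0.0107 to 0.465 over 13 alternatives.

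The Dlg scaffolds went in different directions. Dlg1, which traffics AMPA and NMDA receptors and also acts in epithelial cells, had 40.3, 46.9 and 36.6 CPM in P1 libraries, 103, 104 and 98.3 CPM in P14 libraries, and 117 and 106 CPM at P21. It was 2.41-fold higher at P14 than at P1 (log2 fold change 1.27, SE 0.09, adjusted p = 7.84e-07). Dlg2, a close relative, had 397, 404 and 395 CPM in P1 libraries, 139, 149 and 137 CPM in P14 libraries, and 124 and 104 CPM at P21. It fell at P14 (-1.52, SE 0.06, adjusted p = 3.26e-08). Dlg4, the best-known scaffold of the postsynaptic density, had 327, 307 and 331 CPM in P1 libraries, 291, 286 and 281 CPM in P14 libraries, and 303 and 313 CPM at P21. Its differences were small (-0.20, SE 0.05 at P14 over P1 and 0.16, SE 0.05 at P21 over P14). Dlg3, important in early synapses, stayed between 96.4 and 108 CPM and was not called at either step (0.06, SE 0.05 at P14 over P1). With scaling by library size alone, the median log2 fold change over all genes tested was 0.11 for P14 over P1. Under it Dlg3 was called higher, and Dlg4 and Shank2 were not called.

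Shank1 and Shank3 fell steeply, while the called log2 fold changes of Shank2 were -0.16 and 0.29. Shank1 had 422, 419 and 448 CPM in P1 libraries, 99.7, 109 and 116 CPM in P14 libraries, and 121 and 108 CPM at P21. The groups at P1 and P14 were far apart (log2 fold change -2.02, SE 0.06, adjusted p = 8.95e-09), and P14 and P21 overlapped. Shank3, the gene whose loss causes a neurodevelopmental syndrome in humans, had 132, 139 and 151 CPM in P1 libraries, 35.6, 38.1 and 37.9 CPM in P14 libraries, and 18.8 and 9.65 CPM at P21. It fell at both steps (-1.95, SE 0.17 and -1.33, SE 0.20). Shank2 had 165, 170.3 and 159 CPM in P1 libraries, 154, 153 and 145 CPM in P14 libraries, and 180.1 and 174 CPM at P21. Its small fall at P14 (-0.16, SE 0.05, adjusted p = 0.0198) was not called without P1 replicate 2 (adjusted p = 0.0693) or P14 replicate 3 (adjusted p = 0.0735), with a range of 0.00529 to 0.598 over 14 alternatives. It was higher at P21 than at P14 (0.29, SE 0.06, adjusted p = 0.00389).

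All 3 Homer genes fell at P14. Homer1, whose long forms cross-link receptors and whose short form is induced by activity, had 35.6, 36.7 and 36.5 CPM in P1 libraries, 15.1, 19.5 and 20.3 CPM in P14 libraries, and 19.9 and 15.3 CPM at P21 (P14 over P1 -1.02, SE 0.12). Gene counts do not separate the 2 forms. Homer2 had 32.5, 33.7 and 33.6 CPM in P1 libraries, 13.5, 17.4 and 15.8 CPM in P14 libraries, and 11.0 and 9.29 CPM at P21, and it fell at both steps (-1.13, SE 0.10 and -0.56, SE 0.12). Homer3 had 46.4, 46.4 and 44.8 CPM in P1 libraries, 26.0, 24.8 and 24.3 CPM in P14 libraries, and 25.8 and 24.5 CPM at P21 (P14 over P1 -0.90, SE 0.06). Its exons overlap the antisense gene Ddx49.

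**Figure D3:**
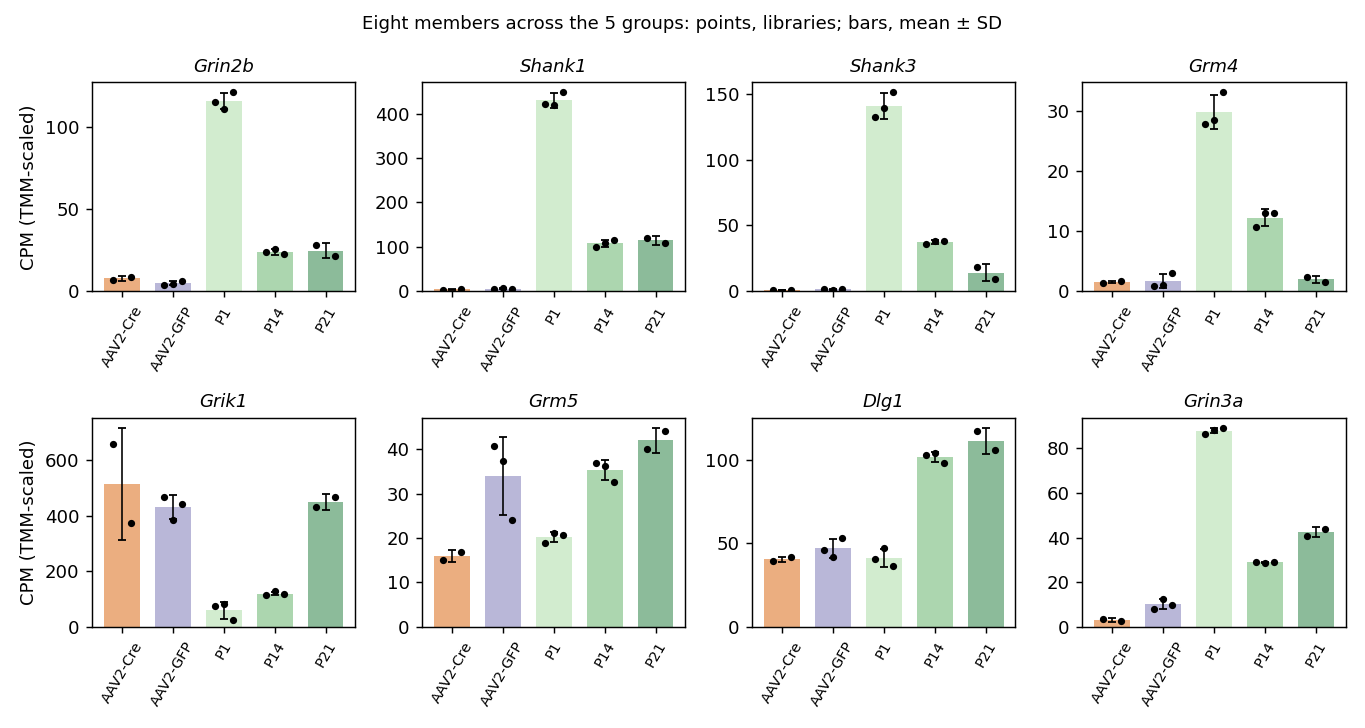
CPM of 8 members in the 5 groups, with 1 point per library and bars for mean ± SD from 0. Grin2b, Shank1, Shank3 and Grm4 (top row) have their highest bars at P1, while Grik1 averages 449.8 CPM at P21 and 59.7 CPM in P1 libraries, and Dlg1 111 CPM at P21 and 41.3 CPM at P1.

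Between P14 and P21 the members went in both directions. At P21 (n = 2), 8 of 33 members were higher and 12 were lower than at P14 (n = 3), against 14.6% and 19.3% of all genes. The median log2 fold change was -0.07 over members, that of all genes was -0.00, and that of RGC markers was -1.03, with 6 of 33 members falling by more than the RGC marker median. With the fold limit, 1 member was higher (Grik1) and 6 members were lower (Grin2a, Grm2, Grm3, Grm4, Grm8 and Shank3), against 2.70% and 9.21% of all genes. Small differences carried much of the remaining count. Without P21 replicate 2, 4 members were higher and 10 were lower, and without P14 replicate 3, 5 were higher and 12 lower. Gria2 lost its call without P14 replicate 1 or 3 or either P21 library (adjusted p 0.0597 to 0.136), Gria4 without P14 replicate 1 or 2 or P21 replicate 2 (0.0749 to 0.177), Dlg2 without P14 replicate 2 or P21 replicate 2 (0.0695 and 0.141), and Dlg4 without any P14 library or P21 replicate 2 (0.0658 to 0.211). Over the whole interval, 3 members were higher at P21 than at P1 (Grik1 2.94, Dlg1 1.46 and Grm5 1.08 on the log2 scale) and 24 were lower, against 34.1% and 33.6% of all genes. The median was -1.07 over members and -4.57 over RGC markers.

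Other genes of the glutamatergic postsynapse (40 genes: receptor auxiliary subunits, trafficking and density proteins, adhesion molecules, and 3 further receptor genes) went in both directions. At P14 against P1, 15 were higher and 21 lower, with a median of -0.37, against 33.6% higher and 33.6% lower of all genes. The fallers with the smallest p were Dlgap3, a Shank-binding density protein (-2.60, SE 0.06), Grip1, an AMPA receptor anchor (-2.14, SE 0.07), and the synaptic adhesion gene Nlgn3 (-1.45, SE 0.06). The risers were Grm6, the receptor of ON bipolar cells (3.32, SE 0.13), Nsf, a membrane fusion ATPase (1.00, SE 0.06), and Lrrc4c, an adhesion gene (1.05, SE 0.07). All 10 bipolar marker genes, among them Isl1, which is also on the RGC list, were higher at P14 than at P1 too. The part of bipolar cells was not tested. At P21 against P14, 11 were higher and 15 lower, against 14.6% and 19.3% of all genes. Lrrtm1 (-1.52, SE 0.12) and Lrrc4 (-1.53, SE 0.13), both adhesion genes, and Cacng5, an AMPA auxiliary subunit (-1.85, SE 0.22), led the falls, while Grip2 (0.77, SE 0.07), Nlgn1 (0.59, SE 0.06) and the kainate auxiliary gene Neto2 (0.76, SE 0.10) led the rises. At P21 against P1, 11 were higher and 25 lower, against 34.1% and 33.6% of all genes. Dlgap3 (-2.70), Grip1 (-2.51) and Nlgn3 (-1.75) again had the smallest p among the fallers, and Grm6 (3.05), Nsf (1.37) and Sipa1l1 (2.26), a density protein gene, among the risers. These comparisons share libraries.

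The second question was whether AAV2-Cre changed these genes after optic nerve crush. No member passed the edgeR test: 0 of 32 tested were higher and 0 lower in AAV2-Cre (n = 2) than in AAV2-GFP (n = 3). Of all 18395 genes, 1.33% were called higher and 0.294% lower, and 1.13% and 0.217% with the fold limit. Grin2c was below the low-count filter. At an unadjusted p under 0.05 there were 5 members, or 15.6%, against 16.5% of all genes. The result depended on the test: DESeq2, which the study used, called 3 members lower (Grin3a, Grm5 and Dlg4) and limma-voom called 0. The percentages of all genes above are from edgeR. Those of DESeq2 and limma-voom are not given here, so the 3 members cannot be set against a share of all genes. With DESeq2, Grin3a (-1.80, adjusted p = 0.00145) and Grm5 (-1.12, adjusted p = 0.00417) also passed the study's fold limit, and Dlg4 (-0.76) did not. The median log2 fold change was -0.19 over members and -0.03 over all genes.

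The 5 members at that unadjusted level had these values. Grin3a had 3.56 and 2.43 CPM in AAV2-Cre, against 8.12, 12.3 and 9.94 CPM in AAV2-GFP, with no overlap (log2 fold change -1.80, SE 0.40, adjusted p = 0.0651). Grm5 had 15.0 and 16.8 CPM in AAV2-Cre, against 40.6, 37.4 and 24.0 CPM in AAV2-GFP (-1.13, SE 0.27, adjusted p = 0.0800). It was called without AAV2-GFP replicate 3, its lowest AAV2-GFP library (-1.31, adjusted p = 0.0348, range over 13 alternatives 0.00166 to 0.482). Dlg4 had 30.7 and 31.8 CPM in AAV2-Cre, against 47.9, 49.3 and 57.7 CPM in AAV2-GFP (-0.77, SE 0.18, adjusted p = 0.0811). Shank2 had 23.5 and 17.7 CPM in AAV2-Cre, against 32.7, 37.2 and 22.8 CPM in AAV2-GFP, so the groups overlapped (-0.63, SE 0.27, adjusted p = 0.296). Grm2 was the one with more in AAV2-Cre, at 4.43 and 8.57 CPM against 3.30, 2.48 and 2.59 CPM in AAV2-GFP (1.18, SE 0.46, adjusted p = 0.241).

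The AMPA genes had small errors. Gria2 had 166 and 139 CPM in AAV2-Cre, against 162, 145 and 174 CPM in AAV2-GFP (-0.11, SE 0.16), and the 4 AMPA genes lay between -0.30 and 0.16. Grik1, the highest member per kb of exon in both groups, had 658 and 372 CPM in AAV2-Cre, a spread that enclosed the 469, 384 and 444 CPM of AAV2-GFP. Low counts left wide errors elsewhere, as for Grm3 (-1.43, SE 1.35), Grin2d (-0.04, SE 1.30) and Grik4 (1.11, SE 1.25). The ratio of Grin2a to Grin2b was -1.98 and -1.35 in AAV2-Cre, against 0.02, -0.24 and -1.54 in AAV2-GFP (difference -1.08, exact permutation p = 0.30, adjusted 0.343). That of Gria2 to the other AMPA genes differed by 0.05 (exact permutation p = 0.70), by -0.15 without AAV2-Cre replicate 1 and by -0.02 without AAV2-GFP replicate 2. Of the 40 other postsynaptic genes, 39 were tested and 0 were called. Cell type markers differed between the groups: B cell markers took 1.52% and 1.79% of counts in AAV2-Cre and 0.298% to 0.997% in AAV2-GFP, with 2 of 6 called higher. Bipolar markers took 0.0945% and 0.109% in AAV2-Cre and 0.124% to 0.163% in AAV2-GFP, with 2 of 10 called lower, and amacrine markers had 2 of 8 called higher. Of RGC markers, whose list shares Isl1 with the bipolar list, 1 of 13 tested was called lower, while their median log2 fold change was 0.32. Of cone markers, 1 of 8 was called lower, and 1 of 10 Müller glia and 1 of 4 astrocyte markers were called higher. Their part in the members' values was not tested.

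**Figure D4:**
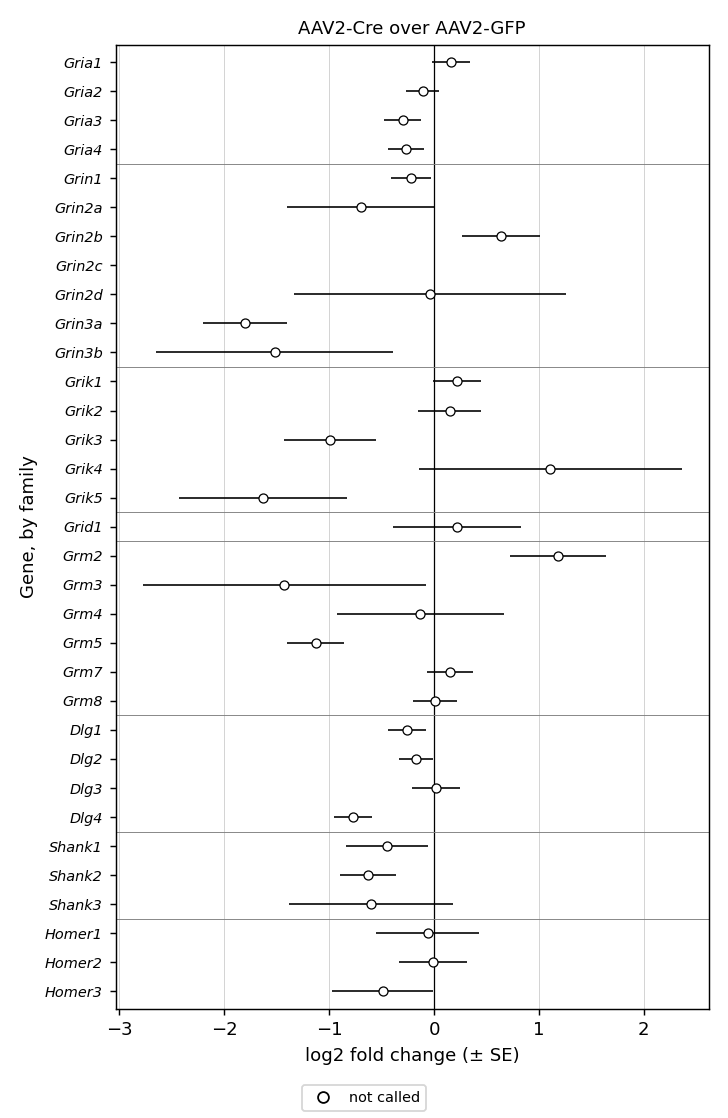
Log2 fold change ± SE of each member (rows, by family) for AAV2-Cre over AAV2-GFP, from edgeR. No point is called, and Grin3a lies farthest left at -1.80. Grin2c, below the low-count filter, has no point.

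Across the 2 datasets the levels are given as a description, since age, injury, dataset and cell content cannot be told apart. Marker shares of counts in AAV2-GFP and at P21 averaged 0.703% and 1.77e-04% for B cells, and 0.732% and 0.0104% for microglia and macrophages. They averaged 3.05% and 0.0396% for rods, and 0.506% and 3.98% for Müller glia. The part of cell content in the levels below was not tested. Per kb of exon, the highest members in AAV2-GFP libraries were Grik1 at 64.3 ± 6.49 CPM per kb, Gria4 at 13.9 ± 0.388 and Gria2 at 10.3 ± 0.916 (SD). At P21 they were Grik1 at 66.9 ± 4.11 CPM per kb, Grik5 at 48.2 ± 0.211 and Dlg4 at 23.2 ± 0.565. At P1 they were Grik5 at 59.7 ± 0.481 CPM per kb, Shank1 at 40.9 ± 1.55 and Gria4 at 27.3 ± 0.338. The next 2 at P1, Dlg2 (24.5 ± 0.294) and Dlg4 (24.3 ± 0.976), lay within their spread. Grin2a was the lowest at both ages, at 0.0906 ± 0.00303 at P21 and 0.446 ± 0.0190 at P1.

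Set against P21, 12 members were lower and 2 higher in AAV2-GFP by 2 or more on the log2 scale with 0.1 CPM added. That compares with 18.3% and 13.9% of the 15042 genes whose mean CPM summed over both groups was above 4. The members were counted without this floor, which Grin2c, Grm2, Grm3, Grm4 and Grin3b did not reach. Of these, Grin2c (-2.39) is among the 12. Grik5 had the widest gap, with 1.94, 1.93 and 2.47 CPM in AAV2-GFP and 248 and 249.8 CPM at P21 (-6.81), and it had 1.02 and 0.384 CPM in AAV2-Cre. Shank1 (-4.17), Grid1 (-3.66), Grin2d (-3.48), Grik4 (-3.28) and Shank3 (-3.22) followed. Grm8 went the other way, with 55.9, 42.3 and 61.9 CPM in AAV2-GFP and 2.95 and 1.81 CPM at P21 (4.43), as did Gria3 (2.27). Over the 15042 genes, the gap moved with the GC content of transcripts. Its median was 0.95 in the 1505 genes with the lowest GC and -1.45 in the 1505 with the highest, of 10 bins. Of the members with the widest gaps, Grik5 has 61.7% GC, Shank1 61.4%, Grin2d 65.0% and Shank3 62.4%, but Grid1 has 49.9% and Grik4 52.2%. Grm8 has 41.9% and Gria3 39.8%. Other members of high GC had small gaps, with -0.24 for Grm4 (61.7% GC), 0.63 for Grin3b (63.4%) and -0.27 for Grin1 (59.4%). Grm4 (1.65 CPM in AAV2-GFP and 1.98 CPM at P21) and Grin3b (1.69 and 1.06 CPM) were low in both groups and below the floor of the bins. The part of GC content in these gaps was not tested. Within a dataset the bins differed little, with medians of -0.04 to 0.10 at P14 over P1 and -0.14 to 0.06 at AAV2-Cre over AAV2-GFP.

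**Figure D5:**
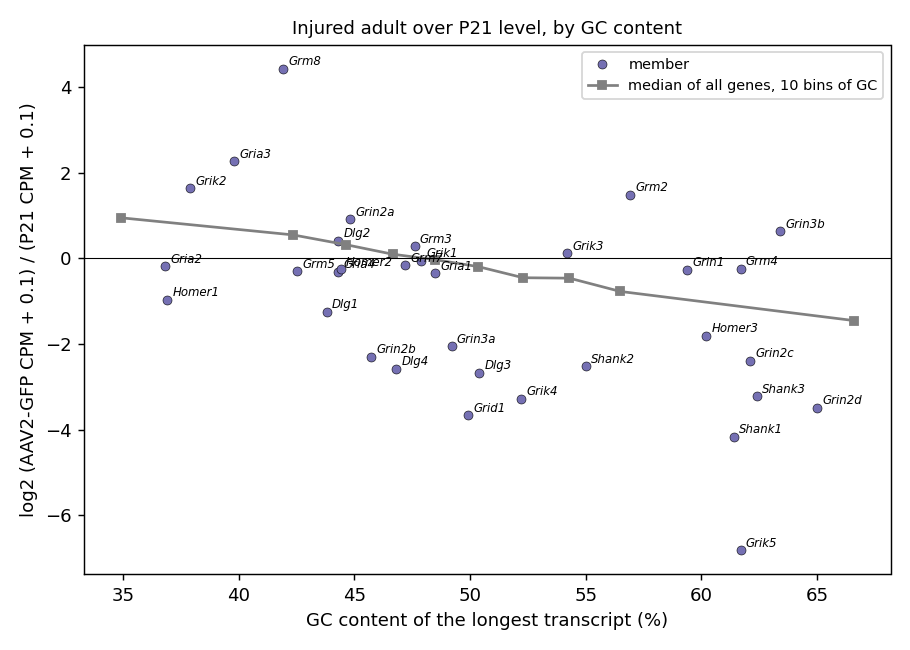
Log2 ratio of mean CPM + 0.1 in AAV2-GFP over P21 for each member, against the GC content of its longest transcript. Grey squares give the median, in 10 bins of GC, of the 15042 genes above a summed mean of 4 CPM. The grey line runs from 0.95 at low GC to -1.45 at high GC, and Grik5 lies lowest at -6.81.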

How the data were processed

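Poly(A)-selected RNA of 13 libraries was sequenced by the study. Reads were trimmed with Trimmomatic 0.39, checked with FastQC 0.11.9, aligned to GRCm38 (mm10) with HISAT2 2.2.1, and the authors deposited whole counts per gene made with featureCounts of Subread 2.0.3, with no normalization. The annotation release and the strand setting are not given in the sources used here, and 18 members share exon bases with another gene. Gene IDs were matched to symbols for 52403 of 52550 genes, and exon lengths came from the GRCm38 annotation.

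Crush (5) and development (8) libraries each had their own fit in R 4.3.3 with edgeR 4.0.16 (TMM scaling, low-count filter by group, glmQLFit and glmQLFTest), with Benjamini-Hochberg adjustment over all genes tested and calls at adjusted p under 0.05. The SE of a log2 fold change is its size divided by the square root of F. The biological coefficient of variation was 0.34 after crush and 0.109 in development. CPM used TMM factors over all 13 libraries. Ratios used 1 CPM added and exact two-sided permutation tests, where 2 against 3 and 3 against 3 libraries cannot go below p = 0.10. Alternatives were DESeq2 1.42.0, limma-voom (limma 3.58.1), other scalings and filters, a replicate block, 1 fit of all libraries, and each library left out. The edgeR fits were also run on simulated counts. These were drawn with the spread estimated from the data, which the run therefore does not check. All members are named, and values per library are given for those called. Of the other postsynaptic genes, the 3 with the smallest p in each direction are named. The members and lists were chosen with earlier results of these data known.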

Additional observations from a re-analysis of the deposited data

How the results depend on the processing

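AAV2-Cre against AAV2-GFP depended on the processing: members called lower numbered 3 with DESeq2, 3 with no low-count filter, 2 with at least 10 counts in every library, 0 to 1 with a library left out, and 4 (with 2 called higher) in 1 fit of all 13 libraries, against 0 and 0 as reported. That fit pools the spread of both datasets. The shares of all genes called under these alternatives are not given here, so these counts have no background. The log2 fold limit of 1 left 1 higher and 15 lower at P14 over P1, and 1 and 6 at P21 over P14. The 8 members higher at P21 over P14 became 2 in the fit of all libraries and 4 to 7 with a library left out. Scaling by library size alone gave 5 higher at P21 over P1, against 3. The Gria2 ratio in AAV2-Cre against AAV2-GFP ran from -0.15 to 0.25 with a library left out, turning sign without AAV2-Cre replicate 1 and without AAV2-GFP replicate 2. The cause of these shifts was not tested. Same-numbered libraries did not deviate together (r from -0.0413 to 0.0168). In groups of 2 libraries the deviations mirror each other, so this check cannot settle whether the replicate numbers pair them. With the replicate block, 6 members were higher and 11 lower at P21 over P14, Gria4, Grm5 and Dlg4 losing their calls, and the counts of the other 3 comparisons were as reported. Among single members no called direction reversed in any alternative. In the crush libraries, whose totals were lower, Grin2c was at 0 counts in 1 AAV2-GFP library, Grik4 in another, and Grm3 in 1 AAV2-Cre library.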
